A study of Mus musculus with 7 samples.

Results

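The Ms4a genes encode small membrane proteins with 4 predicted membrane-spanning segments, and 8 of them were followed here across the leukocytes of the inflamed mouse central nervous system: Ms4a1, Ms4a4a, Ms4a4b, Ms4a4c, Ms4a6b, Ms4a6c, Ms4a6d and Ms4a7. They were taken by symbol, as 8 rows of the 27998 genes that all 7 libraries share, and they are 8 of 19 listed genes whose symbol starts with Ms4a. The study induced experimental autoimmune encephalomyelitis, a T-cell-driven model of multiple sclerosis, in B6 mice with the MOG35-55 peptide, and isolated cells from the central nervous system at the height of disease. CD4+ or CD45+ cells were enriched with beads, and single-cell 3′ libraries counting unique molecular identifiers (UMIs, 1 per captured RNA molecule) were made. The groups were Lag3KO_CD4 (2 libraries), Lag3KO_CD45 (1 library), WT_CD4 (2 libraries) and WT_CD45 (2 libraries). All mice were B6 mice with the disease. Lag3KO libraries carry the genotype label Lag3Floxed and WT libraries the label Lag3wt, each from a group of 5 mice matched for age, sex and disease score. The Cre line, the cells in which it acts, the mice in each library and any pooling are not stated in the labels, so p-values measure only the spread between these libraries.

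MS4A proteins sit in the plasma membrane or in endosomes, where several associate with immune receptors and shape their signalling. Ms4a1 encodes CD20, the B-cell antigen targeted by therapeutic antibodies in multiple sclerosis. Mouse Ms4a4b is a T-cell gene whose product associates with GITR, the costimulatory receptor encoded by Tnfrsf18, while Ms4a4a, Ms4a6d and Ms4a7 are known from myeloid cells, Ms4a7 above all from macrophages at the borders of the brain.

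The libraries held 1428 to 2517 cell barcodes and 4585251 to 18940186 UMIs. Median UMIs per barcode were 2086.5 to 2599.5 in CD4 libraries and 5683 to 6407 in CD45 libraries. Lag3, the targeted gene, had 1 and 0 UMIs in the Lag3KO_CD4 libraries and 2 in the Lag3KO_CD45 library, against 289 and 107 in the WT_CD4 libraries and 304 in WT_CD45 1. The library labelled WT_CD45 2 had 4 Lag3 UMIs and goes against its label. It is named as labelled below, and each genotype difference in CD45 cells that uses it rests on a label its Lag3 count does not bear out. Pairs of libraries shared 0 to 12 barcodes. Cells were clustered without any Ms4a gene and named by marker genes, so the levels below were not used to form the classes. Barcodes that carried both T-cell and myeloid genes, 198 in CD4 and 1563 in CD45 libraries, were set apart. Regulatory T cells (Tregs, 796 in CD4 and 85 in CD45 libraries) carried Ikzf2 at 732 to 1045 counts per 1000000 UMIs of the class (CPM) and Tnfrsf18 at 1451 to 1885 CPM in CD4 libraries. Their defining gene Foxp3 averaged 15.9 CPM there, and was at 0 to 270.9 CPM in CD45 libraries. Conventional CD4 T cells (Tconv) numbered 3083 and 419. The CD45 libraries also gave 156 B cells, 90 natural killer (NK) cells, 224 monocytes, 550 macrophages, 664 type 2 conventional or monocyte-derived dendritic cells (cDC2 or monocyte-derived DC), 163 type 1 conventional (cDC1), 277 migratory and 196 plasmacytoid dendritic cells (pDC).

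All 8 genes lie on chromosome 19 of GRCm38 within 355.175 kb, from base 11249675 to base 11604849 (GENCODE vM21). Ms4a1 (11249675 to 11266241) and Ms4a7 (11321039 to 11336146) are on the minus strand. Ms4a4a (11375523 to 11392790), Ms4a4c (11404770 to 11427246), Ms4a4b (11443553 to 11467055), Ms4a6c (11469366 to 11482192) and Ms4a6b (11516512 to 11531256) follow on the plus strand, and Ms4a6d (11586604 to 11604849) closes the row on the minus strand. Ms4a4c and Ms4a4b are neighbours 16.307 kb apart, and Ms4a4b ends 2.311 kb before Ms4a6c begins.

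**Figure D1:**
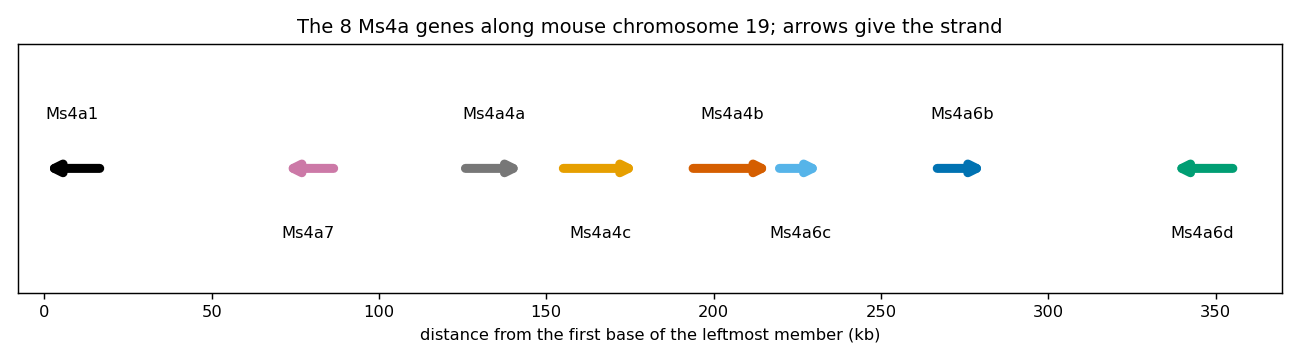
Order, length and strand of the 8 Ms4a genes along chromosome 19 (GRCm38), in kb from the first base of Ms4a1, with arrows pointing in the direction of transcription. The row covers 355.175 kb, and the neighbours Ms4a4c and Ms4a4b are separated by 16.307 kb.

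The promoters of the pairs Ms4a4c and Ms4a4b, and Ms4a6c and Ms4a6b, are shown because each pair shares sequence while its members were read in partly different cells. RefSeq's promoter table (GRCm38.p6) holds 6 of the 8 genes and has no entry matched to Ms4a1 or Ms4a6d. The 250 bases before the start are given 5′ to 3′, with capitals for runs of at least 8 identical bases in the alignment of a pair. They lie on the plus strand at chr19:11407411-11407660 (Ms4a4c), chr19:11443308-11443557 (Ms4a4b), chr19:11469118-11469367 (Ms4a6c) and chr19:11518309-11518558 (Ms4a6b). All starts used here are RefSeq's. For Ms4a4c and Ms4a6b the stretches lie inside the GENCODE genes given above, which begin at bases 11404770 and 11516512.
Ms4a4c: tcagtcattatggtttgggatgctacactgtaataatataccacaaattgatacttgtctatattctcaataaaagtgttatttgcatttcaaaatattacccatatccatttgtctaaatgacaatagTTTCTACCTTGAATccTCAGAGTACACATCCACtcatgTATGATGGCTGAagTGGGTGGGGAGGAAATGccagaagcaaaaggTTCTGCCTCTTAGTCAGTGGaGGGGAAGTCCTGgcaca
Ms4a4b: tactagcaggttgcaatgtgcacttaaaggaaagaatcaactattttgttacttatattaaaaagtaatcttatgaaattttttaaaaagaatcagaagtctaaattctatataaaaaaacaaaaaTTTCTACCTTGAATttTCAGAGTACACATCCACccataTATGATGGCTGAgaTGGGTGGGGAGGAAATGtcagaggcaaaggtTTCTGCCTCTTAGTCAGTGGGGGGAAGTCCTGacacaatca
Ms4a6c: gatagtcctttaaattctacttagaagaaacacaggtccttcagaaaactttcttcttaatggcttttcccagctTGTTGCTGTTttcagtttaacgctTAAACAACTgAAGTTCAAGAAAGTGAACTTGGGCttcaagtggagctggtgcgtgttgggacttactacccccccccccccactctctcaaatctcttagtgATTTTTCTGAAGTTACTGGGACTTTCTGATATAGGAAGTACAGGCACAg
Ms4a6b: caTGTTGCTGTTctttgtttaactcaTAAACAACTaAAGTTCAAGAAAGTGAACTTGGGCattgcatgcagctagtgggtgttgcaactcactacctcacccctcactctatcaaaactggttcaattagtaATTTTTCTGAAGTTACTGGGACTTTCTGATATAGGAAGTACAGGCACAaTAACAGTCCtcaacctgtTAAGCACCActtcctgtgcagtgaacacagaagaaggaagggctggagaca
Over windows of 300 bases, Ms4a4c and Ms4a4b matched at 80% of 285 aligned bases with a longest identical run of 20, and Ms4a6c and Ms4a6b at 85.9% of 220 aligned bases with a longest run of 48. All other pairs of the 6 genes had longest runs of 7 to 9 bases. The letters GAAANNGAA, a shortened form of the element bound by interferon-activated factors, were searched on both strands. They stood as GAAAGTGAA in the capitals of Ms4a6b and of Ms4a6c, with the first base 206 and 133 bases before the start, and at both listed starts of Ms4a7, 71 and 148 bases before them. Of all 32851 promoters of the same length, 8.56% held this motif. The longer form that ends in a further A, which contains it, was in 3.44% and in none of the 6 genes, and TTCNNNGAA, a STAT-type motif, was in 8.30% and in none. GGAAGT, an ETS-type core, was in 23.8% of promoters and in Ms4a4b, Ms4a4c, Ms4a6b, Ms4a6c and Ms4a7, starting 19 and 15 bases before the starts of Ms4a4b and Ms4a4c.

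Members differed in the leukocytes in which their level was highest, with overlap between some. Ms4a1 was read in B cells, Ms4a4b in T and NK cells, Ms4a6b in T cells and in monocytes, Ms4a4c, Ms4a6c and Ms4a6d across monocytes, myeloid clusters and DC, and Ms4a7 in macrophages, whereas Ms4a4a stayed near 0. Summed over all barcodes the 7 libraries held 714 UMIs of Ms4a1, 95 of Ms4a4a, 24467 of Ms4a4b, 18638 of Ms4a4c, 28954 of Ms4a6b, 34470 of Ms4a6c, 17359 of Ms4a6d and 5317 of Ms4a7. Levels below are CPM of the class in 1 library. Reads end near the 3′ end of transcripts, and the last 500 bases of Ms4a6b and Ms4a6c share a run of 60 identical bases, and how the authors' counting assigned reads from that stretch is uncertain. The corresponding longest run was 11 bases for Ms4a4b and Ms4a4c.

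**Figure D2:**
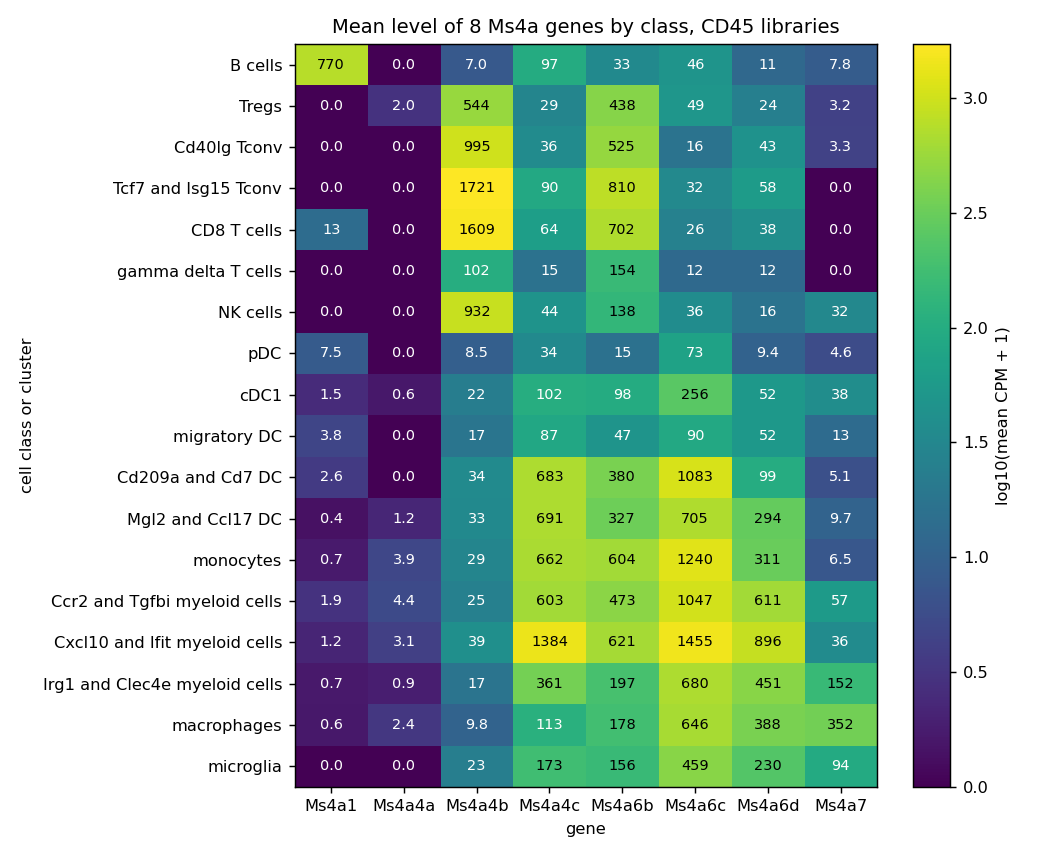
Mean level of each Ms4a gene (columns) in the classes and clusters of the CD45 libraries (rows), as log10(mean CPM + 1) over libraries with at least 20 cells. Ms4a1 is highest in B cells at 770.4 CPM, Ms4a4b in T and NK cells and Ms4a7 in macrophages at 352 CPM, whereas Ms4a4c, Ms4a6c and Ms4a6d share the monocyte, myeloid and DC rows and Ms4a4a is close to 0 throughout.

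Ms4a1, which encodes CD20, stood out in B cells. They held 793 CPM (169 UMIs) in the Lag3KO_CD45 library, against 802 CPM (135 UMIs) in WT_CD45 1 and 716 CPM (127 UMIs) in the library labelled WT_CD45 2. The Lag3KO value lay between the WT values, and the mean was 770.4 ± 47.0 CPM (SD, n = 3). With each cell thinned to 2000 UMIs, 71.8% of B cells (112 of 156, exact binomial 95% interval 64.04 to 78.7%) had an Ms4a1 UMI (82.7% unthinned), against 1 of 550 macrophages and 0 of 224 monocytes, which allows a UMI in up to 1.34% of monocytes at that depth and sets no limit on cells expressing the gene. Unthinned, monocytes held 1 Ms4a1 UMI in all. Such intervals and limits cover counting error only. Plasmacytoid DC held 5.67, 9.59 and 7.32 CPM, from 7 UMIs in all.

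Ms4a4a, whose product is known from macrophages and interacts with the fungal receptor Dectin-1, was close to the limit of detection in these libraries. It averaged 3.93 ± 2.27 CPM in monocytes and 2.39 ± 1.44 CPM in macrophages (SD, n = 3), and was at 0 UMIs in B cells, pDC and migratory DC. The values of monocytes and macrophages overlapped, and no class passed the low-count filter for it.

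Ms4a4b marked T and NK cells. In the CD4 libraries the T-cell cluster led by interferon-induced Ifit genes (Ifit T cells, 309 cells) held 2472 and 2502 CPM in the Lag3KO libraries, against 2872 and 2625 CPM in the WT libraries. Every library's Ifit T cells lay above its other named T clusters: the cluster led by Gzmk and Ccl5 averaged 1538 ± 183 CPM, Cxcr6 Tconv 899.7 ± 90.8 CPM, resting Tconv 850.2 ± 97.1 CPM, and Ccl1 and Il2 Tconv 485 ± 26.8 CPM (SD, n = 4 each). These CD4 clusters did not overlap, save that Cxcr6 Tconv and resting Tconv did. A small cluster that stayed unnamed, with a median of 700.5 UMIs per cell, averaged 3871 ± 402 CPM (SD, n = 3).

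The share of cells followed a like order, with resting and Cxcr6 Tconv exchanged. Thinning to 2000 UMIs left out 141 of 309 Ifit T cells, 490 of 796 Tregs and 14 of 201 microglia as shallower. It also left out 507 of 826 Gzmk and Ccl5 Tconv, 644 of 925 resting Tconv and 291 of 943 Cxcr6 Tconv. Of the cells kept, 95.8% of Ifit T cells (161 of 168, exact binomial 95% interval 91.6 to 98.3%) had an Ms4a4b UMI. So had 87.5% of Gzmk and Ccl5 Tconv, 77.9% of resting Tconv, 76.1% of Cxcr6 Tconv and 68.6% of Tregs (210 of 306, 63.1 to 73.8%). Microglia of the same libraries, which should lack the gene, had it in 1.07% (2 of 187), and macrophages of the CD45 libraries in 1.27% (7 of 550). Without thinning the shares were 96.8% of Ifit T cells, 62.4% of Tregs, 2.49% of microglia and 5.09% of macrophages.

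In the CD45 libraries Ms4a4b averaged 1721 ± 228 CPM in Tconv led by Tcf7 and Isg15 and 932 ± 179 CPM in NK cells (SD, n = 3 each). NK cells held 783 CPM in the Lag3KO_CD45 library, against 881 CPM in WT_CD45 1 and 1131 CPM in the library labelled WT_CD45 2. Gamma delta T cells held 64.4 CPM in the Lag3KO_CD45 library, against 140.3 CPM in WT_CD45 1, below every other T cluster and below NK cells. B cells averaged 6.99 ± 2.08 CPM and pDC 8.5 ± 4.6 CPM, where single UMIs decide the value.

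Ms4a6b was read in T cells and also in monocytes. Among CD4 libraries, Ifit T cells held 1226 and 1607 CPM in the Lag3KO libraries, against 1591 and 1346 CPM in the WT libraries, and Gzmk and Ccl5 Tconv 1183 and 1071 CPM against 1029.8 and 1159.5 CPM. Those clusters were separate from Ccl1 and Il2 Tconv, at 264 to 338 CPM. Monocytes held 583 CPM in the Lag3KO_CD45 library, against 489 CPM in WT_CD45 1 and 738 CPM in the library labelled WT_CD45 2. pDC averaged 15.2 ± 10.1 CPM and B cells 33.5 ± 14.1 CPM (SD, n = 3 each), with a UMI in 2.55% of pDC and 6.41% of B cells, against 62.9% of monocytes.

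**Figure D3:**
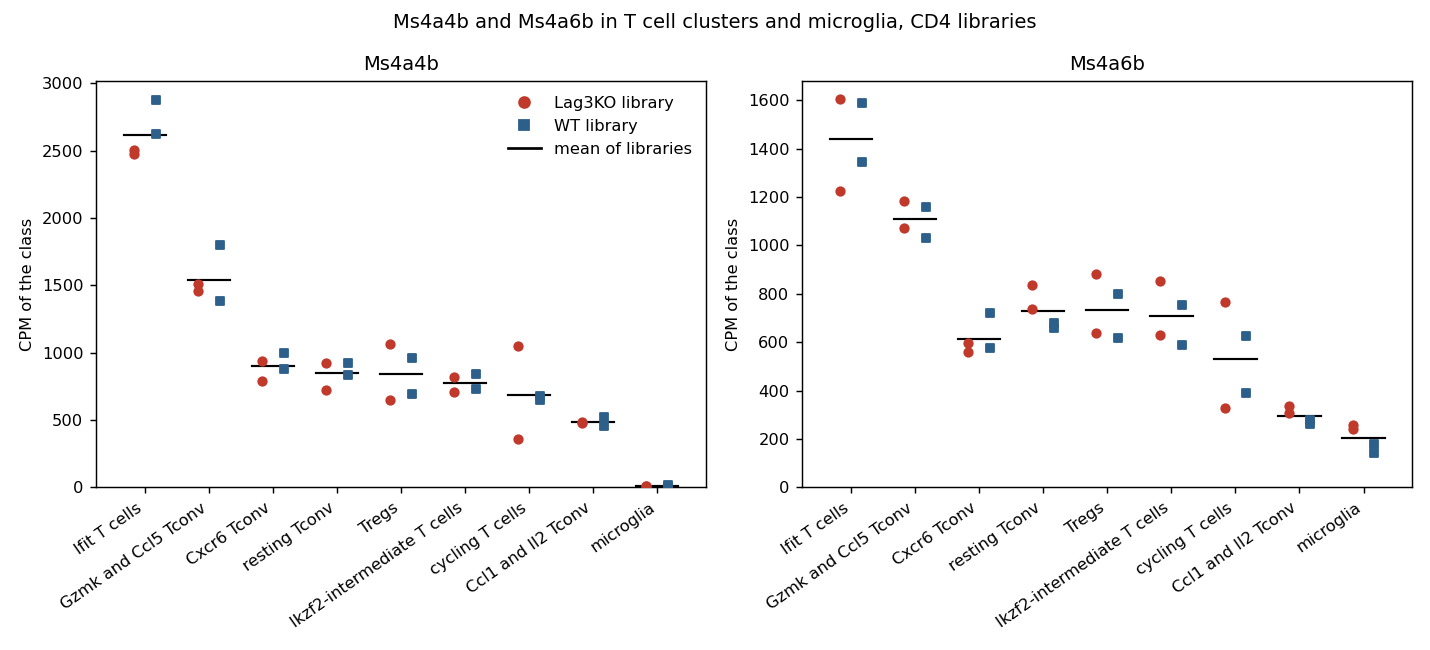
Ms4a4b and Ms4a6b (CPM) in the T-cell clusters of the CD4 libraries, with microglia as a class that should lack Ms4a4b. Each point is 1 library, Lag3KO left of WT; for Ms4a4b, Ifit T cells sit between 2472 and 2872 CPM, above every other cluster drawn, and Ccl1 and Il2 Tconv between 456 and 520.2 CPM.

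Ms4a4c, highest in myeloid clusters and DC, was also read in lymphocytes. In CD4 libraries Ifit T cells held 70.3 and 115 CPM in the Lag3KO_CD4 libraries and 142 and 147 CPM in the WT_CD4 libraries, from 7 to 33 UMIs each. Tregs, among the lowest T clusters, held 4.45 and 12.3 CPM in the Lag3KO libraries and 11.8 and 23.6 CPM in the WT libraries. Gzmk and Ccl5 Tconv held 22.6 and 36.9 CPM, and 43.8 and 70.1 CPM. Both were below Ifit T cells in 4 of 4 libraries. CD8 T cells held 82.4 and 62.2 CPM in the Lag3KO_CD4 libraries, from 9 and 6 UMIs, the first above the Ifit T cells of its library. B cells held 89.1 CPM in the Lag3KO_CD45 library, against 83.2 CPM in WT_CD45 1 and 118 CPM in the library labelled WT_CD45 2, within the range of Ifit T cells. Lyz2, at 25785 to 37800 CPM in monocytes, was at 267 to 1295 CPM in these B cells and 0 to 8.37 CPM in Ifit T cells. The part of myeloid RNA in the B-cell level of Ms4a4c was not tested. A UMI was found in 17.3% of Ifit T cells and 3.27% of CD4-library Tregs at 2000 UMIs. The summed level of 30 type I interferon-induced genes, which was part of what formed the cluster, was 15859 to 21716 CPM in Ifit T cells, 5547 to 11123 CPM in Tregs and 2772 to 5274 CPM in Tconv. A list of 8 monocyte markers summed to 1497 to 2813 CPM in Ifit T cells and 231 to 405 CPM in Tregs. It holds Ly6c2, Plac8 and Ccr2, which T cells also express, and its other 5 genes (Chil3, Hp, Vcan, F13a1 and Thbs1) were at 0 UMIs in Ifit T cells of 4 of 4 libraries.

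Tregs carried less of 3 family members than Tconv of the same libraries. Of the 8 genes, 5 passed the low-count filter, and 3 of these fell in Tregs and 0 rose (edgeR quasi-likelihood test with library as a block, Benjamini-Hochberg adjusted p under 0.05), where 20.2% of all 5843 genes tested were called. The members' median log2 difference was -0.55, against -0.01 over all genes tested. Ms4a4b in Tregs held 649, 1061 and 779 CPM in the Lag3KO libraries (CD4 libraries before CD45, here and below) and 694, 961, 451 and 403 CPM in the WT libraries, the last from the library labelled WT_CD45 2. Tconv of the same libraries held 739, 1114 and 1037 CPM, and 899, 1091, 998 and 1049 CPM. Tregs were lower in 7 of 7 libraries although the 2 ranges overlap, and the log2 difference was -0.55 ± 0.10 (SE, edgeR adjusted p = 0.00021), or -0.43 ± 0.09 without the library labelled WT_CD45 2. Single Tconv clusters of the CD4 libraries lay on both sides of Tregs for Ms4a4b. Ccl1 and Il2 Tconv (456 to 520 CPM) were below Tregs, and Gzmk and Ccl5 Tconv (1383 to 1801 CPM) above. Resting Tconv (721 to 925 CPM) and Cxcr6 Tconv (787 to 1001 CPM) overlapped them. In the CD45 libraries Tconv included the cluster led by Tcf7 and Isg15 (127 cells, interferon list at 5108 to 6945 CPM). With this cluster set apart, a choice made after seeing the data, Tconv of the CD45 libraries held 692 CPM in the Lag3KO library, against 790 and 714 CPM in the WT libraries. Tregs were then lower in 6 of 7 libraries, all but Lag3KO_CD45, and the log2 difference was -0.39 ± 0.09 (SE, edgeR adjusted p = 0.0022).

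Ms4a6d fell likewise. Tregs held 8.89, 17.2 and 23.6 CPM in the Lag3KO libraries and 20.2, 15.7, 19.2 and 30.1 CPM in the WT libraries, from 2 to 12 UMIs each. Tconv held 27.3, 39.6 and 45.4 CPM, and 29.4, 38.1, 58.1 and 50.3 CPM, so that Tregs were lower in 7 of 7 libraries. The log2 difference was -1.11 ± 0.22 (SE, edgeR adjusted p = 0.00046). Single Tconv clusters of the CD4 libraries were not all above Tregs (8.89 to 20.2 CPM) for Ms4a6d. Resting Tconv (9.34 to 36.05 CPM) and Ccl1 and Il2 Tconv (12.96 to 47.27 CPM) overlapped them. Cxcr6 Tconv (21.3 to 43.1 CPM) and Gzmk and Ccl5 Tconv (45.1 to 63.2 CPM) lay above.

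Ms4a4c was lower in Tregs in 6 of 7 libraries, with a log2 difference of -1.04 ± 0.28 (SE, edgeR adjusted p = 0.0077). Tregs held 4.45, 12.3 and 0 CPM in the Lag3KO libraries and 11.8, 23.6, 38.4 and 48.2 CPM in the WT libraries, from 0 to 9 UMIs each, against 24.0 to 93.0 CPM in Tconv. The exception was the library labelled WT_CD45 2, with 48.2 CPM in Tregs and 30.5 CPM in Tconv. In the CD4 libraries resting Tconv, at 4.09 to 21.8 CPM, overlapped Tregs, and the other Tconv summed, at 28.3 to 42.2 CPM, lay above them. The call ended when a cluster with intermediate Ikzf2 (706 cells), set apart here, was counted as Tregs (-0.40 ± 0.19, adjusted p = 0.149). Ifit T cells of the CD4 libraries count among neither class. The monocyte list in the CD4 libraries was at 231 to 405 CPM in Tregs (3 to 6 of 8 genes with a UMI) and 786 to 1220.2 CPM in Tconv (5 or 6 of 8), with Vcan at 0 in both. Its part in the Ms4a4c and Ms4a6d differences was not tested.

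Ms4a6b and Ms4a6c did not pass the test between Tregs and Tconv. Their log2 differences were -0.11 ± 0.07 (adjusted p = 0.326) and 0.28 ± 0.24 (adjusted p = 0.490) by edgeR. In Tregs of CD4 libraries Ms4a6b averaged 735 ± 127 CPM, against 699 ± 129 CPM in Tconv (SD, n = 4 each). Tnfrsf18, whose protein GITR is the partner of MS4A4B, went the other way from Ms4a4b, higher in Tregs by 1.93 ± 0.07 (SE, log2). Its level was given above as a trait of the Treg class, so this rise is not an independent result. The genes of the interferon list rose in Tregs in 12 of 23 tested and fell in 0, with a median of 0.44. Ifit T cells of the CD4 libraries, with this list at 15859 to 21716 CPM, were in neither class. What their absence adds to the difference was not tested. In the CD45 libraries the list summed to 6721 to 7459 CPM in Tregs and 3086 to 3465 CPM in Tconv.

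Within Tconv of the CD4 libraries, resting cells carried less Ms4a4c than the other Tconv clusters summed. They held 4.09 and 19 CPM in the Lag3KO libraries and 10.0 and 21.8 CPM in the WT libraries, against 28.3 and 30.8 CPM, and 29.2 and 42.2 CPM, in other Tconv. The ranges did not overlap, although resting cells gave 1 to 10 UMIs per library. Among single clusters, Ccl1 and Il2 Tconv (7.88 to 30.2 CPM) and Cxcr6 Tconv (17.7 to 35.8 CPM) overlapped resting cells. Gzmk and Ccl5 Tconv (22.6 to 70.1 CPM) lay above them. For resting against other Tconv summed, the log2 difference of Ms4a4c was -1.10 ± 0.29 (SE, edgeR adjusted p = 0.0036). It was the 1 member called of 5 tested, where 22% of genes were. DESeq2 did not call it (-1.19, adjusted p = 0.0911), and with marker gates in place of clusters it was 0.03. Ms4a4b (-0.14 ± 0.08) and Ms4a6b (0.14 ± 0.08) did not pass.

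CD8 T cells carried more Ms4a4b than the Tconv clusters summed, but not more than every single Tconv cluster. They held 1676 and 1503 CPM in the Lag3KO_CD4 libraries and 1609 CPM in the library labelled WT_CD45 2, the 3 libraries with at least 20 CD8 T cells, against 739, 1114 and 1049 CPM in their Tconv. The ranges did not overlap and the log2 difference was 0.78 ± 0.15 (SE, edgeR adjusted p = 0.0075), the 1 called among 5 tested members beside 1.52% of all genes. Without Lag3KO_CD4 1 it was 0.57 ± 0.21 (adjusted p = 0.548). In the CD4 libraries Gzmk and Ccl5 Tconv, at 1383 to 1801 CPM, overlapped CD8 T cells. Resting Tconv, Cxcr6 Tconv, and Ccl1 and Il2 Tconv lay below, at 456 to 1001 CPM. In the CD45 libraries Tcf7 and Isg15 Tconv, at 1492 to 1948 CPM, spanned the CD8 T-cell value of 1609 CPM. The remaining Tconv clusters there lay below, at 426 to 1037 CPM. Ms4a6b, at 989, 933 and 702 CPM against 566, 846 and 497 CPM, was higher in CD8 T cells in 3 of 3 libraries, but the ranges overlap and it did not pass (0.51 ± 0.16, adjusted p = 0.161).

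Among myeloid cells the family split monocytes from macrophages. Of the 8 members 6 passed the filter, and of these 2 were higher and 4 lower in macrophages, where 28.9% of 6424 genes were called. Ms4a7 held 281 CPM (307 UMIs) in macrophages of the Lag3KO_CD45 library, 325 CPM (450 UMIs) in WT_CD45 1 and 449 CPM (560 UMIs) in the library labelled WT_CD45 2. Monocytes of these libraries held 0, 8.74 and 10.8 CPM, from 9 UMIs in all. The ranges are far apart, and the log2 difference was 5.78 ± 0.26 (SE, edgeR adjusted p = 6.9e-28). At 2000 UMIs, 40.9% of macrophages (225 of 550, exact binomial 95% interval 36.8 to 45.1%) had an Ms4a7 UMI, or 68.0% unthinned, against 3.13% of monocytes (4.02% unthinned). Between them lay 2 further clusters, with 152 ± 20.1 CPM in the cluster led by Irg1 and Clec4e and 56.6 ± 14.8 CPM in that led by Ccr2 and Tgfbi (SD, n = 3 each).

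Ms4a4c, Ms4a6b and Ms4a6c were lower in macrophages than in monocytes. Ms4a4c held 136, 123 and 79.4 CPM in macrophages of the Lag3KO_CD45 library, WT_CD45 1 and the library labelled WT_CD45 2, against 596, 625 and 766 CPM in monocytes, a log2 difference of -2.42 ± 0.14 (edgeR adjusted p = 1.2e-22). Ms4a6b held 203, 175 and 156 CPM in macrophages, against 583, 489 and 738 CPM in monocytes (-1.60 ± 0.13, edgeR adjusted p = 2.2e-16). Ms4a6c held 665, 668 and 605 CPM in macrophages, against 1148, 1186 and 1388 CPM in monocytes (-0.79 ± 0.10, edgeR adjusted p = 7.1e-09). In each case the lowest monocyte library exceeded the highest macrophage library. When cells were classed by marker gates in place of clusters, Ms4a6b (-0.34, adjusted p = 0.121) and Ms4a6c (-0.31, adjusted p = 0.154) lost their calls and Ms4a4c kept its.

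Ms4a6d moved the other way, and less firmly. Macrophages held 457, 384 and 323 CPM in the order above, against 340.0, 253 and 339.9 CPM in monocytes, and the ranges overlap. The log2 difference of 0.47 ± 0.13 (SE, edgeR adjusted p = 0.0029) was lost with DESeq2 (adjusted p = 0.146), with marker gates (0.04, adjusted p = 0.880) and without WT_CD45 1 (0.34, adjusted p = 0.162), and was 0.65 ± 0.14 without the library labelled WT_CD45 2. Ms4a4b was called lower in macrophages (-1.44 ± 0.39, adjusted p = 0.0031) at levels of 6.42 to 16.5 CPM in macrophages and 13.1 to 39.0 CPM in monocytes. That call ended without the library labelled WT_CD45 2 (-0.91, adjusted p = 0.205) and with mixed barcodes kept (-0.58, adjusted p = 0.237). The 5 T-cell markers measured summed to 33 to 40 CPM in macrophages and 12 to 26 CPM in monocytes, and their part was not tested. Trem2, a macrophage and microglia receptor whose shed form is linked to the human MS4A locus, was higher in macrophages by 2.73 ± 0.13 (SE). It belongs to the macrophage marker list, so this rise is not an independent result.

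The myeloid cluster led by Cxcl10 and Ifit genes (361 cells) carried the most Ms4a4c, Ms4a6c and Ms4a6d. Ms4a4c held 1095 CPM there in the Lag3KO_CD45 library, against 1234 CPM in WT_CD45 1 and 1822 CPM in the library labelled WT_CD45 2, and no other cluster of the CD45 libraries overlapped it. Ms4a6d held 868 CPM, against 861 and 960.1 CPM in the same order, also apart from the next cluster, Ccr2 and Tgfbi myeloid cells, at 611 ± 76.5 CPM (SD, n = 3). Ms4a6c averaged 1455 ± 205 CPM there and 1240.5 ± 129 CPM in monocytes, whose values overlap. A UMI was found in 77.3% of these cells for Ms4a4c, 89.2% for Ms4a6c and 76.5% for Ms4a6d, against 4.59%, 10.2% and 1.02% of pDC. The interferon list summed to 10445 to 19552 CPM in this cluster and 3871 to 5828 CPM in monocytes. As these genes helped to form the cluster, no test was made. In the CD4 libraries, myeloid cells led by Arg1 and Chil3 held the same genes, at 818 ± 246 CPM of Ms4a4c, 1244 ± 91.1 CPM of Ms4a6c and 861 ± 135 CPM of Ms4a6d (SD, n = 4 each).

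**Figure D4:**
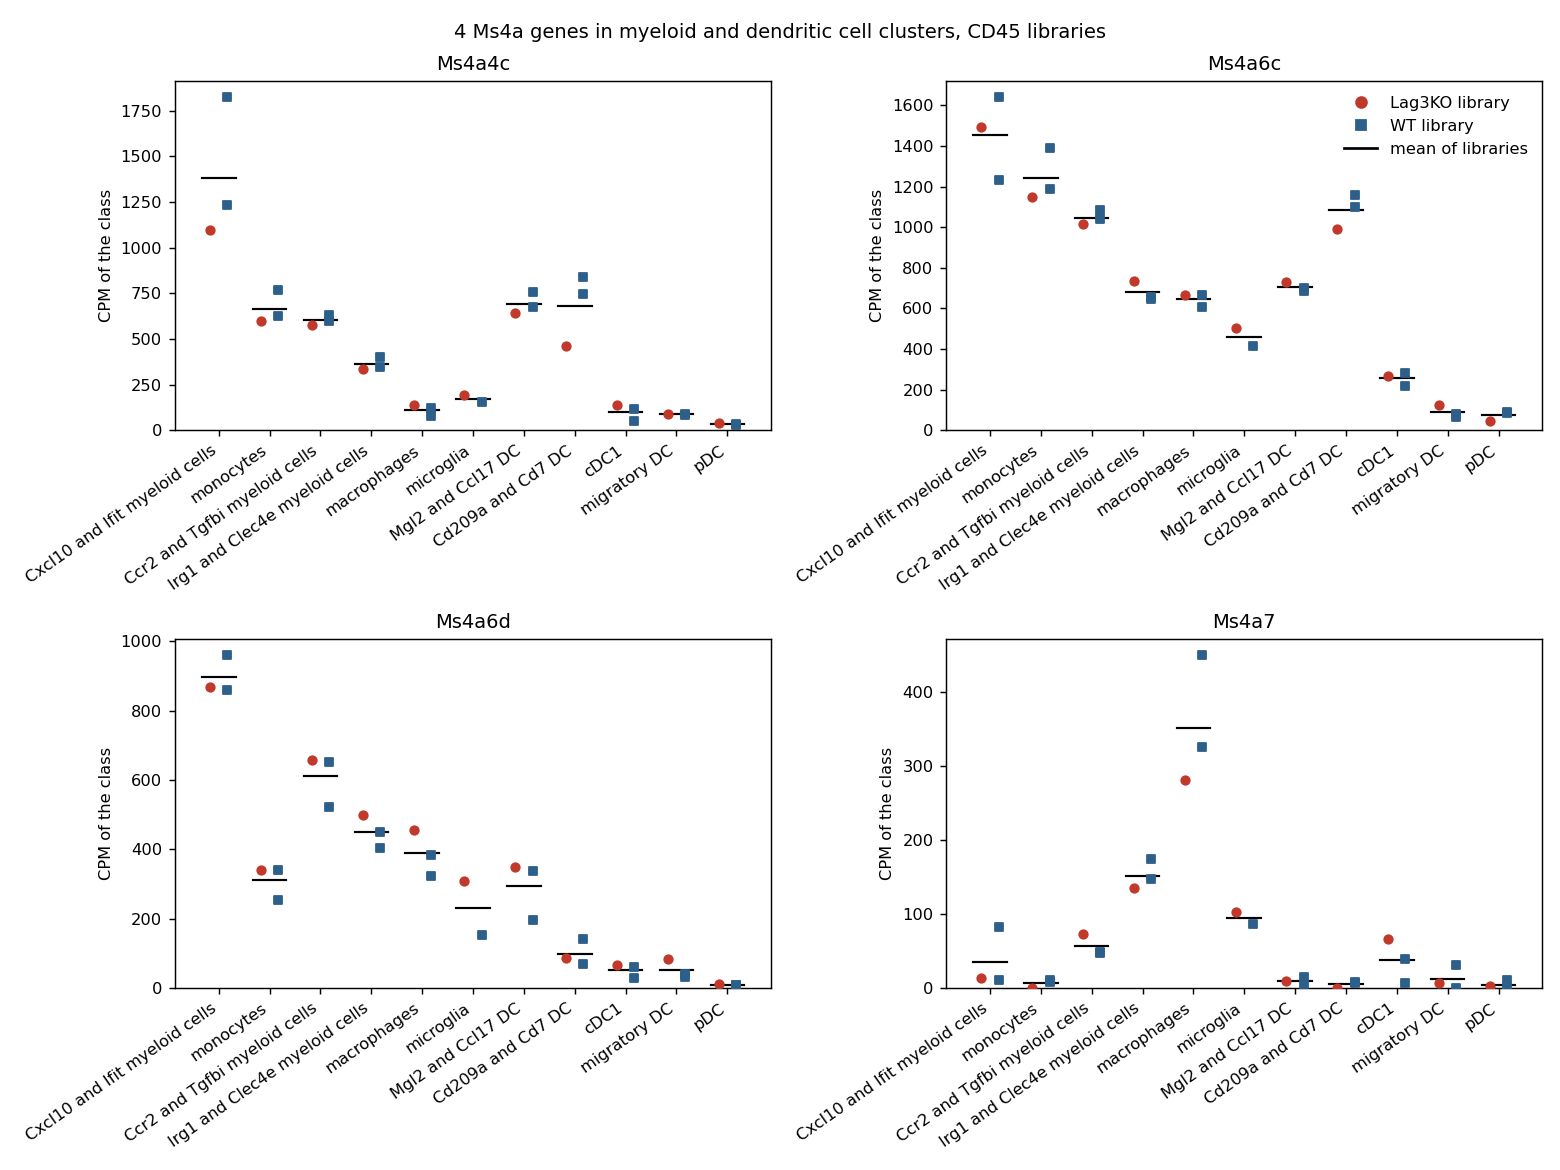
Ms4a4c, Ms4a6c, Ms4a6d and Ms4a7 (CPM) in myeloid and dendritic clusters of the CD45 libraries, 1 point per library, Lag3KO left of WT. Ms4a4c and Ms4a6d are highest in the Cxcl10 and Ifit cluster (1095 to 1822 CPM and 861 to 960.1 CPM), and Ms4a7 in macrophages (281 to 449 CPM).

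Microglia, the resident macrophages of the brain, were compared with macrophages in the 2 CD45 libraries that held at least 20 of them, with 1 residual degree of freedom. Of 6 members tested, 3 fell and 0 rose, beside 11.5% of 6712 genes called. Ms4a7 held 103 CPM in microglia of the Lag3KO_CD45 library and 86.2 CPM in the library labelled WT_CD45 2, against 281 and 449 CPM in macrophages (-1.91 ± 0.21, edgeR adjusted p = 1.5e-06). Ms4a6d held 308 and 153 CPM, against 457 and 323 CPM (-0.87 ± 0.17, edgeR adjusted p = 0.0012). For Ms4a6c, with 501 and 417 CPM in microglia against 665 and 605 CPM, the difference was -0.60 ± 0.13 (edgeR adjusted p = 0.0049), and DESeq2 did not call it (adjusted p = 0.167).

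Microglia of the CD4 libraries gave 1 Ms4a7 UMI in all, with values of 0, 0, 8.33 and 0 CPM. Their Ms4a6c averaged 542 ± 80.8 CPM and their Ms4a6d 347 ± 57.5 CPM (SD, n = 4 each). The monocyte list (2 to 6 of 8 genes with a UMI) summed to 44.8 and 60.8 CPM in the Lag3KO_CD4 libraries and 58.3 and 16.3 CPM in the WT_CD4 libraries, but to 4027 CPM in microglia of the Lag3KO_CD45 library (8 of 8 genes) and 2065 CPM in the library labelled WT_CD45 2 (7 of 8). The macrophage list, which microglia share in part, was at 38284 to 47328 CPM in CD4 and 34660 and 47976 CPM in CD45 libraries. Enrichment and any batch of libraries cannot be told apart here, and the part of other myeloid RNA in the Ms4a7 level of CD45-library microglia was not tested.

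Dendritic cells divided by subset. In cDC2 or monocyte-derived DC, 3 of 5 members tested fell against monocytes and 0 rose, beside 28.4% of 6688 genes. Ms4a6b held 309, 325 and 365 CPM in the Lag3KO_CD45 library, WT_CD45 1 and the library labelled WT_CD45 2, against 583, 489 and 738 CPM in monocytes (-0.81 ± 0.11, edgeR adjusted p = 6.5e-12). Ms4a6c held 812, 761 and 780.4 CPM, against 1148, 1186 and 1388 CPM (-0.63 ± 0.09, edgeR adjusted p = 3.8e-10). Neither pair of ranges overlapped for the class as a whole. By cluster, the one led by Cd209a and Cd7 held 992, 1097.5 and 1159 CPM of Ms4a6c. That range overlapped monocytes, though each value was below monocytes of its own library. The cluster led by Mgl2 and Ccl17 held 729, 684 and 701 CPM. Ms4a6d was called at -0.32 ± 0.12 (adjusted p = 0.0387), but this rested on the library labelled WT_CD45 2, without which it was -0.02 (adjusted p = 0.964), and DESeq2 did not call it (adjusted p = 0.492).

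Ms4a4c did not separate these DC from monocytes. It averaged 682 ± 94.5 CPM in cDC2 or monocyte-derived DC and 662 ± 91.3 CPM in monocytes (SD, n = 3 each), a log2 difference of 0.08 ± 0.10 (edgeR adjusted p = 0.635). Within the class, the cluster led by Cd209a and Cd7 held 86.9, 142 and 67.9 CPM of Ms4a6d in the order above, and the cluster led by Mgl2 and Ccl17 349, 339 and 195 CPM, and these ranges did not overlap (no test was made). Cd40, a costimulatory receptor, rose in these DC by 2.43 ± 0.24 over monocytes (SE, edgeR adjusted p = 9.0e-20).

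The remaining DC subsets are given without a test, save pDC. cDC1 averaged 256 ± 32.2 CPM of Ms4a6c and 102 ± 46.2 CPM of Ms4a4c, and migratory DC 89.5 ± 30.9 and 86.9 ± 5.10 CPM (SD, n = 3 each). In pDC 5 members were tested against cDC2 or monocyte-derived DC and 5 fell, where 38.7% of 6967 genes were called. Ms4a6d held 11.3, 9.59 and 7.32 CPM in pDC, from 9 UMIs, against 267, 302 and 173 CPM (-4.93 ± 0.26, edgeR adjusted p = 2.5e-18). Ms4a6b (-4.60 ± 0.23), Ms4a4c (-4.55 ± 0.16), Ms4a6c (-3.69 ± 0.14) and Ms4a4b (-2.15 ± 0.44) fell as well. The Ms4a4b call, at 3.20 to 11.3 CPM in pDC and 22.5 to 43.7 CPM in the DC, ended with marker gates (-0.74, adjusted p = 0.286). Of the interferon list, 2 genes rose and 24 fell in pDC among 30 tested. The list's summed level went the other way, at 7290 to 8217 CPM in pDC and 5606 to 5980 CPM in cDC2 or monocyte-derived DC.

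The series' title names Lag3-deficient Tregs, and the Lag3KO and WT genotypes were compared within each class. A member could be tested in 11 classes, for 48 tests in all, and 0 were called by edgeR and 0 by DESeq2 at an adjusted p under 0.05. Without adjustment, 10 of the 48 had a p under 0.05, beside 5.91% of the 55559 tests of all genes in these classes, and the smallest adjusted p was 0.143. The filter let Ms4a6c into 10 classes, Ms4a4c and Ms4a6b into 9, Ms4a4b into 8, Ms4a6d into 7, Ms4a7 into 4, Ms4a1 into 1 and Ms4a4a into 0. A p that misses the threshold does not show equal levels. In classes found in CD45 libraries alone, 1 Lag3KO library stood against 2 WT libraries, of which the library labelled WT_CD45 2 goes against its label.

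In Tregs, 3 members were tested and 0 called, beside 0.0818% of all genes. Ms4a4b, at the values given above, differed by 0.29 ± 0.20 on the log2 scale between Lag3KO and WT (SE, edgeR adjusted p = 0.999), and by 0.21 ± 0.19 without the library labelled WT_CD45 2. Ms4a6b held 640.2, 882 and 425 CPM in Lag3KO Tregs, against 619, 801, 480.1 and 409 CPM in WT Tregs, a difference of 0.06 ± 0.16. Both genotypes overlap for both genes. Fitted by enrichment, 4 members were tested and 0 called in CD4 libraries (0.0677% of all genes) and in CD45 libraries (0.0451%), with 0 and 2 under an unadjusted p of 0.05, beside 3.38% and 6.32% of genes. The CD45 libraries gave Ms4a4b 0.80 ± 0.34 and the CD4 libraries 0.06 ± 0.21, and the difference between these effects was 0.74 ± 0.40 (adjusted p = 0.887), with 0 of 4 members called beside 0.0451% of genes. Lag3KO_CD45 and WT_CD45 1 each gave 20 Tregs, and DESeq2 called 0 members in Tregs as well.

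In Tconv, 5 members were tested and 0 called, and 0% of all genes were called. Ms4a4b differed by -0.05 ± 0.13 and Ms4a6b by 0.08 ± 0.14 between Lag3KO and WT. By enrichment, 0 of 5 were called in the CD4 libraries (0.0549% of genes), in the CD45 libraries (0%) and for the difference (0%), with 0 of 5 under an unadjusted p of 0.05 in each of these fits, beside 3.11%, 5.42% and 4.81% of genes. NK cells gave 0 of 2 members called (1.26% of genes), with Ms4a4b at -0.47 ± 0.30.

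B cells gave 0 of 3 members called, and 0% of genes. Ms4a1 differed by 0.06 ± 0.14 between Lag3KO and WT (SE, edgeR adjusted p = 0.963). In monocytes 0 of 5 were called (0.666% of genes), with Ms4a4c at -0.21 ± 0.21, Ms4a6c at -0.15 ± 0.19 and Ms4a6d at 0.21 ± 0.23. In macrophages 0 of 6 were called (0.0388% of genes). Ms4a7 was at 281 CPM in the Lag3KO library and at 325 and 449 CPM in the WT libraries, outside each other's range, with -0.49 ± 0.21 (edgeR adjusted p = 0.775). The macrophage marker list (10 of 10 genes with a UMI) moved alongside, at 40464 CPM in the Lag3KO library against 46922 and 60945 CPM, and its part was not tested.

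Microglia gave 6 libraries over both enrichments. Ms4a6b held 241, 259 and 188 CPM in Lag3KO microglia, against 142, 179 and 125 CPM in WT microglia, so the groups did not overlap, and the log2 difference was 0.61 ± 0.22 (SE, edgeR adjusted p = 0.284). Ms4a6d held 399.9, 378 and 308 CPM, against 341, 269 and 153 CPM, with overlap (0.56 ± 0.20, edgeR adjusted p = 0.284). None of 5 members was called by edgeR, beside 0.299% of genes, and 2 had an unadjusted p under 0.05, as had 10.5% of genes. Trem2, whose protein senses lipids in microglia, differed by -0.66 ± 0.16 (adjusted p = 0.0922).

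Dendritic cells completed the set. In cDC2 or monocyte-derived DC 0 of 6 members were called (0.858% of genes), with Ms4a4c at 585 CPM in the Lag3KO library against 774 and 686 CPM in the WT libraries (-0.38 ± 0.14, edgeR adjusted p = 0.346). In cDC1 0 of 6 were called (0.0191% of genes). There Ms4a7 held 66.8 CPM against 39.5 and 6.23 CPM (1.44 ± 0.60, edgeR adjusted p = 0.995), and the macrophage list (9 or 10 of 10 genes with a UMI, Mrc1 at 0 in 2 libraries) 5512 CPM against 3915 and 2363 CPM, whose part was not tested. In migratory DC 0 of 5 were called (0.85% of genes), and Ms4a6d, with 82.9 CPM against 31.7 and 41.0 CPM, had the smallest adjusted p of all 48 tests (1.15 ± 0.38, edgeR adjusted p = 0.143). In pDC 0 of 2 were called (0.5% of genes), with Ms4a6c at 45.3 CPM against 86.3 and 87.8 CPM (-0.98 ± 0.41, edgeR adjusted p = 0.517).

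**Figure D5:**
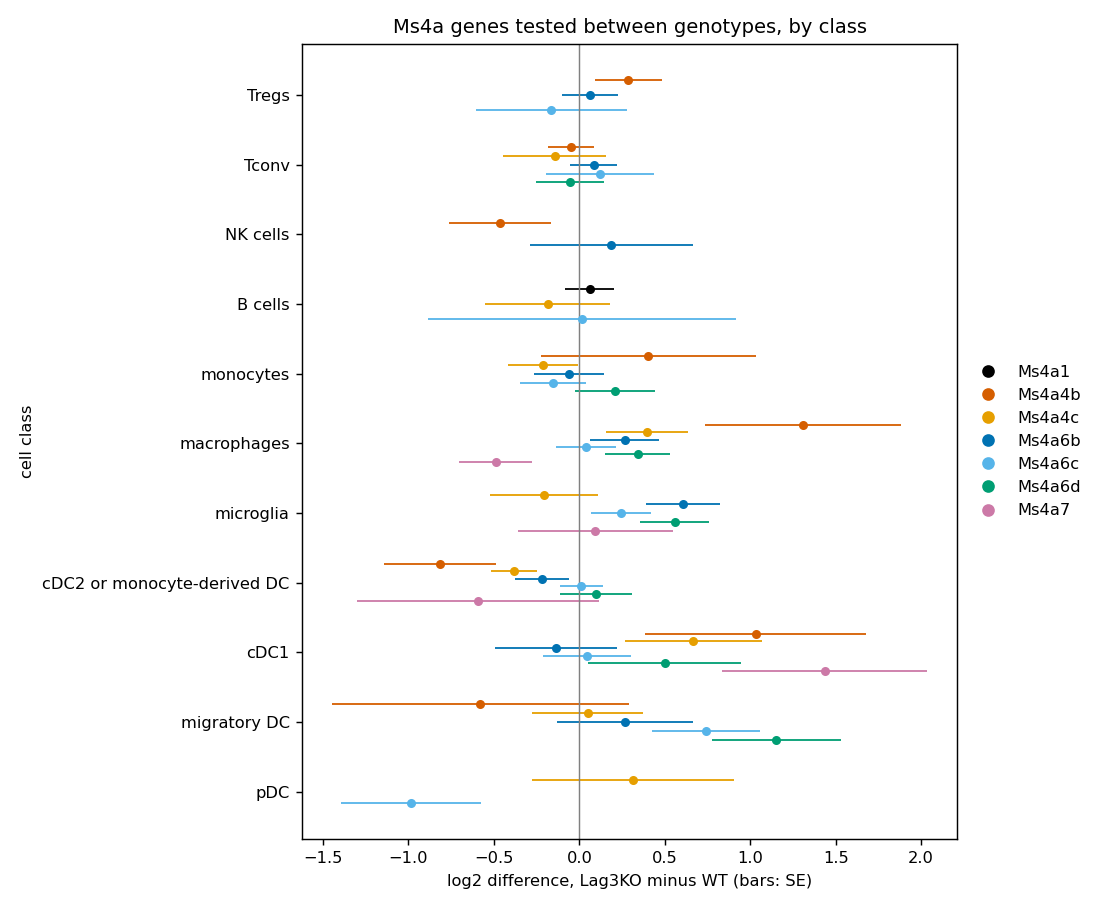
Log2 difference between Lag3KO and WT, with its SE, for each Ms4a gene tested in each class. The points run from -0.98 (Ms4a6c in pDC) to 1.44 (Ms4a7 in cDC1), and 0 of 48 tests passed an adjusted p of 0.05.

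Across the 23 classes and clusters of the CD45 libraries, the genes whose mean log2(CPM + 10) ran most like each member were described by Pearson's r, among 5441 genes. The points share 3 libraries, and r is given as a description. Ms4a1 ran with Vpreb3 (0.98), Pax5 (0.97) and Bend5 (0.97), of which Pax5 encodes the B-lineage transcription factor. Ms4a4b ran with Lef1, Prkcq and Skap1 (0.96 each), a T-cell transcription factor, a kinase and an adaptor of T-cell receptor signalling. The closest to Ms4a6b were Casp1 (0.83), Fxyd5 (0.82) and Ywhab (0.77).

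For the myeloid members, Ms4a4c ran with Mefv, Pnp and Ccl9 (0.91 each), Ms4a6c with Pid1 (0.96), Wfdc17 (0.95) and Ccl9 (0.95), and Ms4a6d with Sirpb1c (0.94), Msr1 (0.93) and Klra2 (0.92). Msr1 encodes a scavenger receptor. Ms4a7 ran with Spp1, Arg1 and C1qb (0.93 each), the genes for osteopontin, arginase 1 and a complement subunit. Arg1 and C1qb belong to the macrophage marker list, so their place here is not an independent result. Among members, r was 0.91 for Ms4a4c and Ms4a6c and 0.88 for Ms4a6c and Ms4a6d, but -0.58 for the neighbours Ms4a4b and Ms4a4c with their similar promoters. For Ms4a4b and Ms4a6b it was 0.53.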

How the data were processed

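Raw UMI counts per gene and cell were used as the authors deposited them in 7 filtered matrices. Per the labels' protocols, libraries were made with 10x Chromium 3′ v2 kits and sequenced on a NextSeq. Cell Ranger and Seurat and the builds GRCm38 and mm10 are named in the submitters' processing notes, and Cell Ranger 3.0.2 in the file headers of the 4 CD4 libraries; no other version is stated. Barcodes with at least 200 genes and at most 10% mitochondrial UMIs were kept, and predicted doublets (0.8% per 1000 barcodes, 1.09 to 2.03% per library) were removed. CD4 and CD45 libraries were clustered separately (2000 variable genes without any Ms4a gene, 30 components, 15 neighbours, Leiden resolution 1.0; Python 3.11.15, scikit-learn 1.9.0, leidenalg 0.10.2). Barcodes with at least 2 T-cell UMIs, 5 per 10000 T-cell and 50 per 10000 myeloid UMIs were called mixed. Cluster names and the mixed rule were set after the clusters were seen and before any genotype test. Counts were summed per class and library with at least 20 cells, and tested with edgeR 4.0.16 (TMM, filterByExpr, quasi-likelihood; R 4.3.3), with genotype and enrichment as terms, or class with library as a block. Adjusted p (Benjamini-Hochberg) is over all genes tested, and a call means under 0.05. DESeq2 1.42.0, no low-count filter, marker gates, mixed barcodes kept, the intermediate cluster as Tregs and the Tcf7 and Isg15 cluster apart from Tconv (both added after the data were seen), each enrichment alone and each library left out were the alternatives. The fits were tested on simulated data. The members and gene lists were chosen with earlier results of these data known. Named beside the 8 members were other Ms4a genes with at least 20 UMIs in a class, the 3 genes most like each member among those reaching 50 CPM, known partners, and the interferon list. Promoter sequences are RefSeq's (GRCm38.p6). 1 gene of the monocyte marker list is not reported here and was left out of its sums.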

Additional observations from a re-analysis of the deposited data

Results flagged for a closer look

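Outside the 8 members, 2 other Ms4a genes carried signal in these libraries above the classes that served as background. Ms4a8a averaged 131 ± 10.8 CPM in monocytes (SD, n = 3, from 161 UMIs), against 0 UMIs in 156 B cells and 1 UMI in pDC. Myeloid clusters of the same libraries held it as well, at 126 ± 40.1 CPM in the Cxcl10 and Ifit cluster, 108 ± 23.5 CPM in the Ccr2 and Tgfbi cluster and 72.6 ± 39.1 CPM in the Irg1 and Clec4e cluster (SD, n = 3 each). It was also read in the Arg1 and Chil3 myeloid cells of the CD4 libraries, at 156 ± 44.7 CPM (SD, n = 4). Ms4a3, known from mouse granulocyte and monocyte progenitors, averaged 186 ± 42.2 CPM (SD, n = 3, from 233 UMIs in 89 cells) in an unnamed cluster led by Elane and Mpo, against 0 UMIs in NK cells and pDC and 4.25 CPM in monocytes. Neutrophils of WT_CD45 1, the 1 CD45 library with at least 20 of them, held 143 CPM of Ms4a3 (38 UMIs in 23 cells). Neither gene was tested between genotypes. Ms4a4d also reached 20 UMIs in a class, Tconv of the CD4 libraries, at a low 2.77 ± 1.28 CPM (SD, n = 4).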

How the results depend on the processing

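No paired analysis was possible because the replicate numbers come from accession order and pair no libraries. Of 225 alternative values for single members' differences, 198 kept their direction and side of the threshold, 19 kept direction and lost the call, and 8 turned direction. The cause was not tested in any of them. Direction turned only for 4 results: Ms4a6b between genotypes in Tregs (-0.092 with CD45 libraries alone, -0.14 to 0.20 leaving out 1 library), Ms4a4b in Tconv (0.015 with CD45 libraries alone, -0.20 to 0.10 leaving out 1 library), Ms4a6b in Tconv (-0.073 to 0.23 leaving out 1 library), and Ms4a4c in resting against other Tconv (0.033 with marker gates). None of the first 3 was called. Of 125 counts of members called, 119 stayed within 1.5 times. In Tregs against Tconv, 1 member was called with CD45 libraries alone. In resting against other Tconv, DESeq2 called 0. In CD8 T cells against Tconv, marker gates gave 2, mixed barcodes kept gave 2, and leaving out 1 library gave 0 to 1, with 0 without Lag3KO_CD4 1. In macrophages against monocytes, marker gates gave 3. All 8 mean levels checked with at least 50 cells per library moved by less than 1 SD, and 19 of 24 shares of cells moved with the thinning depth. Leaving out a library could not be fitted for genotype in classes found in CD45 libraries alone, nor for microglia against macrophages. Few libraries, 20 Tregs in each of 2 CD45 libraries, levels resting on under 10 UMIs and the doubtful label of WT_CD45 2 limit the genotype differences.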
